A study of Mus musculus with 3 samples.

Results

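Fatty acid oxidation enzymes break fatty acids down to acetyl-CoA in mitochondria and peroxisomes. The group described here was taken by gene symbol from the deposited tables of liver expression and has 9 genes (Cpt1a, Cpt2, Acadl, Acadm, Acadvl, Hadha, Hadhb, Ehhadh and Acaa1b) among 23850 rows. All 9 had an estimate with the status OK in every library. There were 3 libraries of ribosomal RNA-depleted total RNA from mouse liver at 16 weeks of age, 1 for each group, on a C57BL6J/FVB background. Wild-type mice were fed ad libitum (wt AL), mice of genotype Ercc1 delta/-, which carry a null allele and a delta allele of Ercc1 in the whole body, were fed ad libitum (Ercc1 AL), and mice of the same genotype were kept under diet restriction (Ercc1 DR). ERCC1 is a DNA repair protein, and the mutants are used as a model of early ageing. No wild-type library under diet restriction was analysed here, so diet can be read within the mutant only. The labels used here do not say whether a library holds 1 animal or a pool. Each group being a single library, animals cannot be compared within it and nothing was tested, and every difference below lacks a replicate check.

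In liver, fatty acids released from fat tissue enter the mitochondrion through the carnitine shuttle, where CPT1A on the outer membrane attaches carnitine and CPT2 on the inner side removes it. Each turn of beta oxidation then runs through an acyl-CoA dehydrogenase chosen by chain length, a hydratase, a second dehydrogenase and a thiolase. Peroxisomes run a parallel cycle on very long chains and dicarboxylic acids. The nuclear receptor PPARA, which binds direct repeats of a hexamer close to AGGTCA, drives many of these genes in fasting, and malonyl-CoA, the product of acetyl-CoA carboxylase, inhibits CPT1A.

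The sequences upstream of 4 members are shown because these genes carry the main differences below: Cpt1a and Ehhadh were the members past 2-fold higher, Acaa1b was the one that was lower, and the Hadhb stretch is also the upstream region of Hadha. Each line gives the 250 bases before the gene's start in RefSeq on GRCm38.p6, 5′ to 3′ on the gene's strand. Capitals mark AGGTCA (a nuclear receptor hexamer), CCAAT (a box bound by NF-Y) and GGGCGG (a GC box bound by SP1), each searched on both strands, and no base lay in more than 1 of these motifs.
Cpt1a, chr19:3323051-3323300, plus strand: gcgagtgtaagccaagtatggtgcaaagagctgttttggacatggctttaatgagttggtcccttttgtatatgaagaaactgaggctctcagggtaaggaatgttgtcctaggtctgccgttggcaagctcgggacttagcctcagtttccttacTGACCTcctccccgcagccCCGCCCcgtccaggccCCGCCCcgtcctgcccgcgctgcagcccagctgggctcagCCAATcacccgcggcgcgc
Ehhadh, chr16:21787835-21788084, minus strand: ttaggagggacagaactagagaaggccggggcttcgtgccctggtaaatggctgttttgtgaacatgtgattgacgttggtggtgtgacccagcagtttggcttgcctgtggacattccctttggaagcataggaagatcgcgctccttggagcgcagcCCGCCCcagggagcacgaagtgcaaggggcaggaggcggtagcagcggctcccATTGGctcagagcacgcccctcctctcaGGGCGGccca
Hadhb, chr5:30155003-30155252, plus strand: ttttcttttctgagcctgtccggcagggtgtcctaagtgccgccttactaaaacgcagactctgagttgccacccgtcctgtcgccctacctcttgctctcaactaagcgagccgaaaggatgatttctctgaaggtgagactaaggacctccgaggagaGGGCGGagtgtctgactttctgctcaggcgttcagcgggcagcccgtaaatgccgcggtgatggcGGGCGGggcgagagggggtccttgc
Acaa1b, chr9:119157094-119157343, minus strand: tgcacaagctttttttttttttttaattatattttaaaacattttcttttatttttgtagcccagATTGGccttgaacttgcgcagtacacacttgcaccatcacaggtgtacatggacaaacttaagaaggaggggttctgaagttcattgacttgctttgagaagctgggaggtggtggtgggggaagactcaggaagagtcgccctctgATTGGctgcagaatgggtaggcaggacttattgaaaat

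In windows from 250 bases before to 50 bases after the start, AGGTCA was present in 3 of the 9 members (Acadm, Acadvl and Cpt1a) and in 16.3% of 32851 RefSeq windows. GGGCGG was present in 6 members and 35.7% of windows, and CCAAT in 3 members and 37.4% of windows. AGGTCA repeated after 1 free base, and the looser AGGNCA repeated in the same way, were in no member window and in 0.0396% and 0.381% of all windows, which says only that these letters are not in the windows searched. The Acaa1b window had a GC content of 43.7%, below the 50.7% of Acadvl, the next lowest of the members, and the median of 52.7% over all windows. Hadha and Hadhb start 273 bases apart on opposite strands, and their windows share 228 bases.

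Expression is given as FPKM, which divides fragments by transcript length and by library size, so levels of different genes can be set beside each other. Taken as counting error alone, the deposited intervals imply 19.0 M, 25.1 M and 25.03 M fragments across wt AL, Ercc1 AL, then Ercc1 DR, and between 1020 and 12706 fragments for a single member in a library. The deposited FPKM lay above its own interval for 7 of the 9 members in wt AL and for 8 in each Ercc1 library, with Hadha inside it in all 3. For the other members the FPKM was up to 12.5% above the midpoint. Of all rows with an estimate, 9.70% in wt AL, 12.9% in Ercc1 AL and 13.0% in Ercc1 DR lay outside their interval, on either side. What the intervals cover is not given in the sources used here, and with 1 library per group they cannot give the spread between animals. The libraries differ in their general level. Over 9109 genes with at least 1 FPKM in all 3, the median log2 FPKM ratio was 0.49 for Ercc1 AL against wt AL, 0.33 for Ercc1 DR against Ercc1 AL and 0.78 for Ercc1 DR against wt AL. Log2 ratios below are of FPKM + 1 after this median was set to 0, unless called as deposited. Ercc1 itself stood at 0.461, 0.573 and 0.475 FPKM across wt AL, Ercc1 AL, then Ercc1 DR, and a value over the whole gene does not check the genotype.

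The tissue label was checked against markers. Apoa1 was at 665, 1100 and 1767 FPKM across wt AL, Ercc1 AL, then Ercc1 DR and Ttr at 978, 781 and 2062 FPKM, while albumin had no estimate in any library. The summed level of the 6 hepatocyte markers with an estimate, of 8 listed, was 2172, 1823 and 3094 FPKM after rescaling to wt AL. Endothelial markers (8 of 8 measured, none at 0) summed to 30.4, 16.6 and 8.10 FPKM on that scale, and macrophage markers (7 of 8, none at 0) to 15.8, 14.3 and 7.92 FPKM. Skeletal muscle markers (7 of 7, none at 0) summed to 15.4, 15.4 and 8.69 FPKM and adipocyte markers (7 of 7, none at 0) to 2.44, 3.59 and 3.09 FPKM. Stellate markers (7 of 7, none at 0) summed to 21.9, 24.8 and 22.5 FPKM on the same scale. Cholangiocyte markers (5 of 5, none at 0) summed to 6.52, 3.16 and 2.78 FPKM and erythroid markers (5 of 5, none at 0) to 154, 65.9 and 90.3 FPKM. As deposited the hepatocyte sum was 2172, 2565 and 5318 FPKM, so its lower value in Ercc1 AL depends on the scaling. The hepatocyte sum rests mainly on Apoa1, Ttr and Cps1. Of its 6 genes 5 lay above 0 in Ercc1 DR against Ercc1 AL, and Serpina1a, at 281, 281 and 192 FPKM across wt AL, Ercc1 AL, then Ercc1 DR, lay below, at a log2 ratio of -0.88. The hepatocyte sum was highest, and the endothelial and macrophage sums lowest, in the library where most members were highest. The skeletal muscle and cholangiocyte sums were also lowest there, and the stellate, adipocyte and erythroid sums were not. The stellate sum rests mainly on Dcn (13.5, 24.5 and 30.8 FPKM as deposited) and the erythroid sum on Hba-a2 (145, 72.3 and 151 FPKM). In Ercc1 DR against Ercc1 AL, all 4 measured stellate genes lay below 0, with Dcn at -0.003, and so did 2 of 3 erythroid genes. Of all genes 44.8% lay above 0 there. The part of these markers in the results below was not tested. In bulk liver, fewer cells of a type and less RNA per cell cannot be told apart.

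Under free feeding, the mutant liver had oxidation enzymes near the general level of its library, apart from Cpt1a at the top and Acaa1b at the bottom. None of the 9 members was at least 2-fold higher in Ercc1 AL than in wt AL, beside 2.23% of 12359 genes tested, and 1 (Acaa1b) was at least 2-fold lower, beside 4.51%. The log2 ratio was above 0 for 5 members, beside 50.9% of genes, and as deposited for 8, since Acadm, Acadvl and Hadha change sign with the scaling. Its deposited bounds lay wholly above 0 for 3 members (Cpt1a, Cpt2 and Hadhb), beside 24.1% of genes, and wholly below 0 for 3 (Acadvl, Hadha and Acaa1b), beside 27.6%. The median log2 ratio of the members was 0.05, against 0.01 over all genes tested. As deposited, 1 member (Cpt1a) was past 2-fold higher, beside 5.8% of genes, and Acaa1b was past it lower, beside 2.2%.

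With diet restriction in the mutant, 8 of the 9 members stood above the median shift of the library and Acaa1b below it. The log2 ratio was above 0 for 44.8% of the 12361 genes tested in Ercc1 DR against Ercc1 AL. Only Ehhadh was past 2-fold higher, beside 2.99% of genes, and no member was past 2-fold lower, beside 11.4%. The bounds lay wholly above 0 for 7 members, beside 29.6% of genes, included 0 for Cpt2, and lay below 0 for Acaa1b, beside 38.2%. The members' median was 0.42, against -0.06 over all genes and 0.15 over genes with at least 5 FPKM in either library, as all members had. As deposited, 3 members (Ehhadh, Acadl and Acadm) were past 2-fold higher, beside 6.5% of genes, and none lower, beside 8.71%.

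The restricted mutant also differed from the freely fed wild type, a comparison that shares a library with each of the other 2. Ehhadh and Cpt1a were past 2-fold higher, beside 5.36% of 12127 genes, and Acaa1b past 2-fold lower, beside 14.4%. The log2 ratio and its bounds lay above 0 for 8 members, beside 48.0% of genes by the ratio and 33.7% by the bounds, and below 0 for Acaa1b, beside 38.1% by the bounds. The members' median was 0.74, against -0.03 over all genes and 0.22 over genes with at least 5 FPKM in either library. As deposited, 7 members were past 2-fold higher, beside 24.0% of genes, and 1 lower, beside 8.63%, so the count of members past the threshold depends on the scaling.

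**Figure D1:**
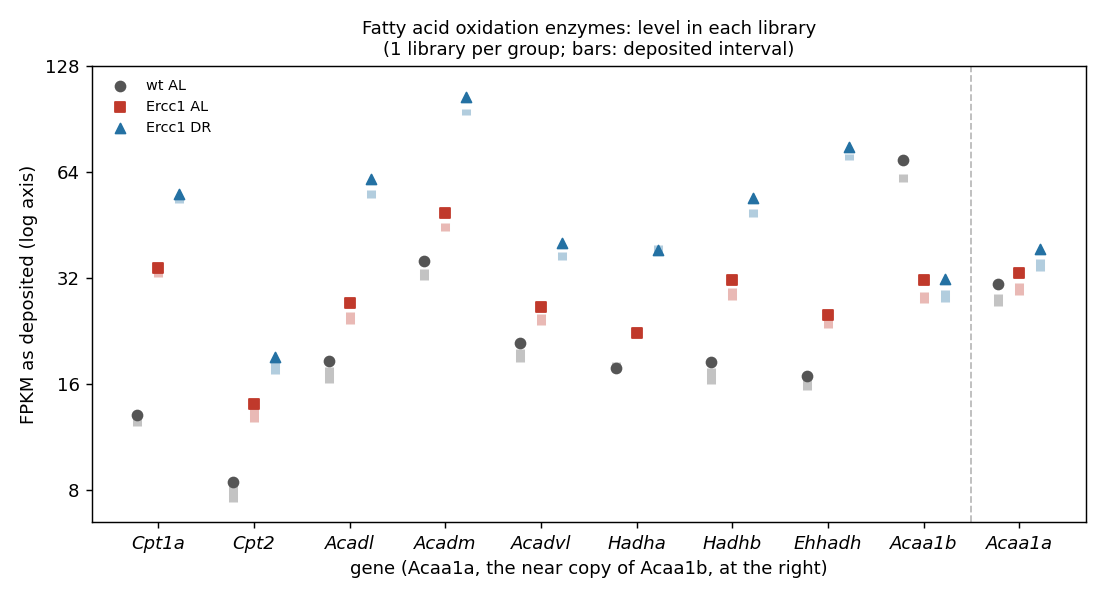
Deposited FPKM (log axis) of the 9 members and of Acaa1a in the 3 libraries, with the deposited interval as a bar; points often lie above their bars. Ercc1 DR is highest for 8 members, from 19.2 FPKM for Cpt2 to 104 FPKM for Acadm, while Acaa1b is highest in wt AL at 69.3 FPKM.

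Among the 9 members, Cpt1a had the highest log2 ratio in the freely fed mutant against the wild type. Cpt1a, which makes acylcarnitine at the outer membrane and sets the pace of entry (chromosome 19, 3323301 to 3385733), was at 13.1 FPKM in wt AL (interval 12.2 to 13.1), 34.2 FPKM in Ercc1 AL (32.1 to 33.6) and 55.5 FPKM in Ercc1 DR (52.3 to 54.2). The 3 deposited intervals do not overlap, with wt AL lowest. The log2 ratio was 0.85 in Ercc1 AL against wt AL, with 0.80 to 0.97 from the deposited bounds, and 2.98% of genes tested had a higher one. It was 0.36 (0.30 to 0.42) in Ercc1 DR against Ercc1 AL and 1.24 (1.21 to 1.37) in Ercc1 DR against wt AL.

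Cpt2, which returns the acyl group to coenzyme A inside (chromosome 4, 107903982 to 107923589), was the lowest member in every library. It was at 8.44 FPKM in wt AL (7.40 to 8.39), 14.1 FPKM in Ercc1 AL (12.5 to 13.8) and 19.2 FPKM in Ercc1 DR (17.1 to 18.6). After rescaling the difference was small: the log2 ratio was 0.22 in Ercc1 AL against wt AL, and in Ercc1 DR against Ercc1 AL it was 0.10 with bounds of -0.03 to 0.24 that include 0. It was 0.36 (0.24 to 0.54) in Ercc1 DR against wt AL. The ratio of Cpt1a to Cpt2 within a library, which no scaling between libraries can move, was 1.55 in wt AL (1.45 to 1.77 from the deposited bounds), 2.43 in Ercc1 AL (2.32 to 2.69), then 2.90 in Ercc1 DR (2.82 to 3.17). Gene pairs for such ratios were chosen after the values were seen.

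The 3 acyl-CoA dehydrogenases, which take the first step of each turn, differed under restriction, with Acadl and Acadm on one side and Acadvl on the other. Acadvl, for very long chains and bound to the inner membrane (chromosome 11, 70010183 to 70015428), was at 20.9 FPKM in wt AL (18.5 to 20.1), 26.4 FPKM in Ercc1 AL (23.5 to 25.3) and 40.3 FPKM in Ercc1 DR (35.9 to 38.0). Acadl, for long chains (chromosome 1, 66830839 to 66863309), was at 18.5 FPKM (16.1 to 17.9), 27.1 FPKM (23.8 to 25.6) and 61.2 FPKM (54.0 to 56.8) in that order. Acadm, for medium chains (chromosome 3, 153922353 to 153944643), was at 35.7 FPKM (31.5 to 33.9), 48.9 FPKM (43.4 to 45.7) and 104 FPKM (92.8 to 96.7).

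For each of the 3 dehydrogenases the order of libraries was wt AL, Ercc1 AL, Ercc1 DR with no overlap of the deposited intervals, and after rescaling the difference between the freely fed libraries was small. The log2 ratio in Ercc1 AL against wt AL was -0.15 for Acadvl (-0.27 to -0.04), 0.05 for Acadl (-0.08 to 0.18) and -0.04 for Acadm (-0.14 to 0.04), and the last 2 include 0. In Ercc1 DR against Ercc1 AL it was 0.27 for Acadvl (0.17 to 0.36), 0.82 for Acadl (0.74 to 0.93) and 0.75 for Acadm (0.69 to 0.82). The values in Ercc1 DR against wt AL were 0.16, 0.91 and 0.75 in the same order. The within-library ratio of Acadl to Acadvl was 0.886 in wt AL (0.800 to 0.967), 1.02 in Ercc1 AL (0.939 to 1.09), then 1.52 in Ercc1 DR (1.42 to 1.58), and that of Acadm to Acadvl was 1.70 (1.56 to 1.83), 1.85 (1.72 to 1.94) and 2.58 (2.44 to 2.69). Both ratios were highest in Ercc1 DR, outside the bounds of the freely fed libraries. In GENCODE M21, exons of Acadvl share 1151 bases with exons of Dvl2 on the opposite strand, and whether counting used strand is not given in the sources used here. Dvl2 was at 0.801, 1.03 and 0.999 FPKM in the 3 libraries. In the deposited positions the 2 genes do not overlap, with Dvl2 ending at 70010109 and Acadvl starting at 70010183.

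Hadha and Hadhb encode the alpha and beta subunits of the mitochondrial trifunctional protein, which carries the hydratase and dehydrogenase steps on alpha and the thiolase step on beta. Hadha (chromosome 5, 30118304 to 30154980) was at 17.8 FPKM in wt AL (17.3 to 18.5), 22.3 FPKM in Ercc1 AL (21.8 to 23.2) and 38.3 FPKM in Ercc1 DR (37.9 to 39.6). Hadhb (chromosome 5, 30155322 to 30184583) was at 18.4 FPKM (16.0 to 17.8), 31.6 FPKM (27.8 to 29.9) and 53.9 FPKM (47.5 to 50.1). The upstream stretch printed above lies between these 2 genes. In Ercc1 DR against Ercc1 AL both had nearly the same log2 ratio, 0.43 for Hadha (0.37 to 0.53) and 0.42 for Hadhb (0.34 to 0.52). It was 0.31 in Ercc1 DR against wt AL for Hadha (0.25 to 0.42) and 0.74 for Hadhb (0.64 to 0.86).

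In Ercc1 AL against wt AL the 2 subunits lay on opposite sides of 0, at -0.15 for Hadha (-0.26 to -0.07) and 0.27 for Hadhb (0.15 to 0.41). As deposited both were above 0, at 0.31 and 0.75, so the opposite signs depend on the scaling. The ratio of Hadhb to Hadha does not, and was 1.04 in wt AL, 1.42 in Ercc1 AL, then 1.41 in Ercc1 DR. From the deposited bounds it was 0.865 to 1.03, 1.20 to 1.37 and 1.20 to 1.32, ranges that leave out the ratios of the FPKM themselves because Hadhb lies above its interval and Hadha does not. The sequence of Hadhb limits its value. Of the 50-base windows of its longest coding transcript in GENCODE M21, 62.4% also occur in transcripts of other genes, first in Gm13910, annotated as a processed pseudogene on chromosome 2, and 52.8% of 100-base windows do. For Hadha the share at 50 bases was 0.655%, in Garem2, whose exons on the opposite strand share 75 bases with it.

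**Figure D2:**
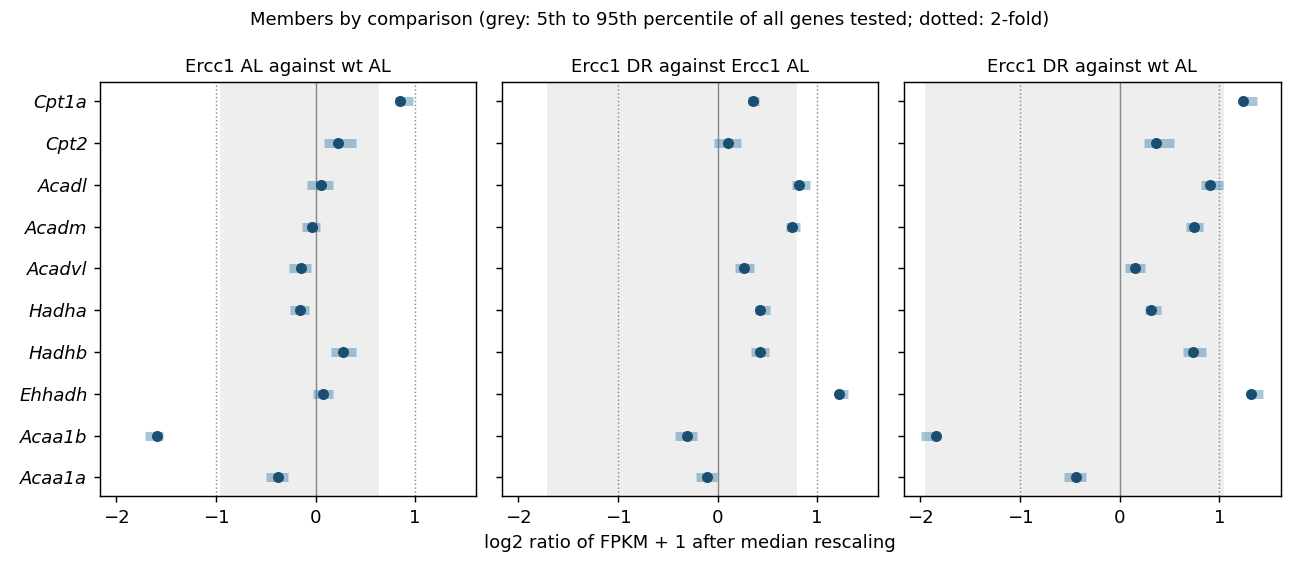
Log2 ratio of FPKM + 1 after median rescaling for each member and Acaa1a in the 3 comparisons, with bars from the deposited bounds, the 5th to 95th percentile of all genes tested in grey and dotted lines at 2-fold. Acaa1b lies at -1.59 in Ercc1 AL against wt AL and at -1.85 in Ercc1 DR against wt AL, and Ehhadh reaches 1.21 and 1.32 in the comparisons with Ercc1 DR.

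In Ercc1 DR against wt AL the 2 peroxisomal members were past 2-fold in opposite directions, while in the other comparisons only 1 of them was past it. Ehhadh, the bifunctional hydratase and dehydrogenase also known as L-PBE (chromosome 16, 21761285 to 21787834), was at 16.9 FPKM in wt AL (15.4 to 16.7), 25.1 FPKM in Ercc1 AL (23.0 to 24.4) and 75.1 FPKM in Ercc1 DR (69.3 to 71.9). Ercc1 DR stood clear of both freely fed libraries. The log2 ratio in Ercc1 DR against Ercc1 AL was 1.21 (1.17 to 1.31), and 1.76% of genes tested had a higher one, while in Ercc1 AL against wt AL it was 0.07 with bounds of -0.03 to 0.17 that include 0. Against wt AL, Ercc1 DR had a log2 ratio of 1.32 (1.27 to 1.44).

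Acaa1b, a peroxisomal thiolase that closes the cycle (chromosome 9, 119148043 to 119157093), was at 69.3 FPKM in wt AL (59.9 to 63.2), 31.5 FPKM in Ercc1 AL (27.1 to 29.2) and 31.9 FPKM in Ercc1 DR (27.4 to 29.6). It was the highest member in wt AL, and the intervals of the 2 mutant libraries overlap each other far below that level. The log2 ratio was -1.59 in Ercc1 AL against wt AL (-1.72 to -1.53) and -1.85 in Ercc1 DR against wt AL (-1.99 to -1.80), and 1.14% and 5.48% of genes tested had a lower one. In Ercc1 DR against Ercc1 AL it was -0.30 (-0.43 to -0.20) and, as deposited, 0.02.

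Acaa1b has a near copy, Acaa1a, on the same chromosome, and 46.2% of the 50-base windows of its transcript occur in another gene, with 35.5% of all its windows in Acaa1a, and 30.5% of its 100-base windows occur in another gene. How such reads were split between the copies is not given in the sources used here, so single values of either gene are uncertain. Acaa1a (chromosome 9, 119341294 to 119350295) was at 30.8 FPKM in wt AL (26.6 to 28.8), 33.1 FPKM in Ercc1 AL (28.7 to 30.9) and 38.7 FPKM in Ercc1 DR (33.5 to 36.1). The ratio of Acaa1b to Acaa1a was 2.25 in wt AL (2.08 to 2.38), 0.951 in Ercc1 AL (0.876 to 1.02), then 0.824 in Ercc1 DR (0.758 to 0.883). Acaa1b was thus above its copy in wt AL only, and by this ratio the difference does not depend on the scaling between libraries. In GENCODE M21 the exons of Acaa1b also share 224 bases with Dlec1 on the opposite strand, which was at 0.347, 0.523 and 0.277 FPKM. In the deposited positions these 2 genes do not overlap, with Dlec1 ending at 119147694 and Acaa1b starting at 119148043.

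**Figure D3:**
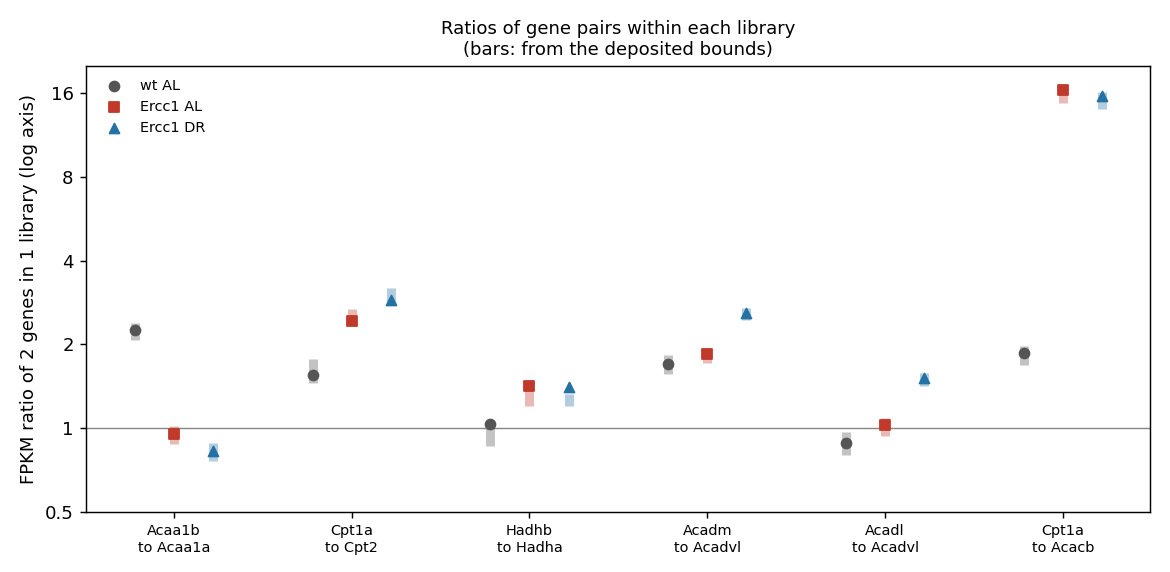
FPKM ratio of 2 genes within the same library (log axis) for 6 pairs, with bars from the deposited bounds; no scaling between libraries enters. Acaa1b to Acaa1a goes from 2.25 in wt AL to 0.951 and 0.824 in the mutant libraries, and Cpt1a to Acacb from 1.87 to 16.4 and 15.6.

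The members also differed in how alike they were. By the distance between their pairs of log2 ratios (Ercc1 AL against wt AL and Ercc1 DR against wt AL), the closest were Acadvl and Hadha at 0.15, then Acadl and Acadm at 0.18, and the farthest were Cpt1a and Acaa1b at 3.93. Acaa1b was at least 2.47 from every other member. The members' median pattern over the 3 libraries was set beside 1075 other genes with at least 10 FPKM in each library. Symbols of predicted or clone-named genes, small RNAs, histones, immunoglobulins and mitochondrial transcripts, among others, were left out of these. The nearest were Igf1 (distance 0.02), Hsdl2 (0.03), Mia2 (0.03), Rab7 (0.04) and Gchfr (0.04). Igf1, the circulating growth factor, was at 19.2, 27.6 and 56.1 FPKM across wt AL, Ercc1 AL, then Ercc1 DR. Over 3 libraries this likeness is a description only.

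The other genes of the pathway were counted from lists. Each list count stands against the share of all genes past 2-fold after rescaling, which was 2.23% higher and 4.51% lower in Ercc1 AL against wt AL, 2.99% and 11.4% in Ercc1 DR against Ercc1 AL, and 5.36% and 14.4% in Ercc1 DR against wt AL. As deposited these shares were 5.8% and 2.2%, 6.5% and 8.71%, and 24.0% and 8.63%. Of 16 other genes of mitochondrial beta oxidation, none was past 2-fold in Ercc1 AL against wt AL or in Ercc1 DR against Ercc1 AL. In the latter all 16 lay above 0, between 0.08 and 0.70, beside 44.8% of all genes. Their median there was 0.38, against -0.06 over all genes and 0.15 over genes with at least 5 FPKM in either library. The hydratase Echs1 was at 27.7, 38.9 and 80.5 FPKM across wt AL, Ercc1 AL, then Ercc1 DR, the electron transfer enzyme Etfdh at 17.8, 25.5 and 50.4 FPKM, and the thiolase Acaa2 at 105, 135 and 243 FPKM. Eci2, an enoyl-CoA isomerase, was the list's only gene past 2-fold in Ercc1 DR against wt AL, at 98.0 against 25.8 FPKM and a log2 ratio of 1.11. As deposited, 11 of the 16 were past 2-fold higher there, Eci2 alone (1.02) in Ercc1 AL against wt AL and Echs1 alone (1.03) in Ercc1 DR against Ercc1 AL. The list's medians were 0.01 in Ercc1 AL against wt AL and 0.39 in Ercc1 DR against wt AL.

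Among 19 other peroxisomal genes the spread was wider. In Ercc1 DR against Ercc1 AL, 3 were past 2-fold higher and 1 lower, with a median of 0.22. The bile acid oxidase Acox2 was at 3.07, 8.71 and 33.2 FPKM across wt AL, Ercc1 AL, then Ercc1 DR, the thioesterase Acot3 at 6.99, 2.12 and 7.54 FPKM, and the fatty acyl-CoA transporter Abcd2 at 1.42, 1.01 and 4.25 FPKM. Acot8, another thioesterase, was the lower one, at 20.0, 27.5 and 7.68 FPKM. Acot3 was also the list's only gene past 2-fold in Ercc1 AL against wt AL, where it was lower, and that median was -0.11. Phyh, which opens alpha oxidation of phytanic acid, was at 154, 378 and 717 FPKM and, with Acox2, past 2-fold higher in Ercc1 DR against wt AL. Acot8 was past 2-fold lower there, at -1.94 and at -1.27 as deposited. The list's median in that comparison was -0.15, and 0.56 as deposited. After rescaling 8 of 19 genes lay above 0 and 11 below, beside 48.0% of all genes above 0. As deposited, Acox2 and Phyh were also past 2-fold higher in Ercc1 AL against wt AL, and 7 genes of the list were in Ercc1 DR against wt AL.

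In the carnitine shuttle and malonyl-CoA list, 7 of 9 genes passed the filter of 1 FPKM, and Cpt1b and Cpt1c, the muscle and brain forms of CPT1, did not. The acetyl-CoA carboxylases that make malonyl-CoA were the 2 genes past 2-fold lower in Ercc1 AL against wt AL, on both scales, and Crot, a peroxisomal carnitine transferase, was past 2-fold higher as deposited only. Acacb, the form at mitochondria, was at 7.004 FPKM in wt AL (6.68 to 7.21), 2.08 FPKM in Ercc1 AL (1.96 to 2.19) and 3.55 FPKM in Ercc1 DR (3.36 to 3.72), and Acaca at 10.1, 3.97 and 5.54 FPKM. Mlycd, which removes malonyl-CoA, stood the other way round at 2.85, 6.22 and 9.12 FPKM, without passing 2-fold after rescaling. The ratio of Cpt1a to Acacb was 1.87 in wt AL, 16.4 in Ercc1 AL, then 15.6 in Ercc1 DR. No gene of the list was past 2-fold in Ercc1 DR against Ercc1 AL, where all 7 lay between 0.12 and 0.52, beside 44.8% of all genes above 0.

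Of 13 uptake and activation genes, the acyl-CoA synthetase Acsl4 was the 1 past 2-fold higher in Ercc1 AL against wt AL and none was lower. In Ercc1 DR against Ercc1 AL, Acsl4 and the fatty acid receptor Cd36 were past 2-fold higher and the binding protein Fabp1 past 2-fold lower, the last only after rescaling (-1.26, and -0.92 as deposited). Acsl5, another synthetase, was past 2-fold higher as deposited only, at 1.21. Acsl4 was at 5.04, 17.2 and 51.2 FPKM across wt AL, Ercc1 AL, then Ercc1 DR and Cd36 at 8.01, 8.45 and 44.9 FPKM. Fabp1, the main fatty acid carrier of the hepatocyte, was at 1120, 939 and 494 FPKM, far above its deposited intervals of 657 to 678, 551 to 568 and 289 to 302.

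Among 13 regulators, Ppara itself was at 9.34, 17.9 and 23.1 FPKM across wt AL, Ercc1 AL, then Ercc1 DR, with log2 ratios of 0.41 in Ercc1 AL against wt AL and 0.04 in Ercc1 DR against Ercc1 AL. Lpin1, a phosphatase and coactivator of PPARA, was at 8.26, 21.3 and 73.4 FPKM and, with the transcription factor Foxa2 at 5.004, 2.05 and 8.77 FPKM, made up the 2 genes past 2-fold higher in Ercc1 DR against Ercc1 AL after rescaling. The coactivator Ppargc1a was at 0.592, 0.811 and 3.20 FPKM, a log2 ratio of 0.97 in that comparison and of 1.21 as deposited. Ppargc1a was below 1 FPKM in both freely fed libraries and passed the filter through Ercc1 DR only, so its ratio leans on the pseudocount. In Ercc1 AL against wt AL, where 12 of the 13 regulators were measured, the calls turned with the scaling. After rescaling Foxa2 alone was past 2-fold, at -1.29. As deposited it was at -0.98, and 3 genes were past 2-fold higher (Lpin1 at 1.27, Creb3l3 at 1.15 and Esrra at 1.12).

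Other PPARA targets and ketogenic genes did not share a direction under diet restriction, and most were lower in Ercc1 AL than in wt AL after rescaling. In Ercc1 AL against wt AL, 3 of 12 measured genes lay above 0 and 9 below, beside 50.9% of all genes above 0. The median was -0.38, and the bounds lay wholly below 0 for 8 genes, beside 27.6% of all genes. That pattern turned with the scaling, since 7 of the 12 lay above 0 as deposited. In Ercc1 DR against Ercc1 AL, 2 of 12 measured genes were past 2-fold higher, the omega hydroxylases Cyp4a14 (10.6 to 138 FPKM) and Cyp4a10 (17.2 to 113 FPKM), and none lower, with a median of 0.06. The secreted lipase inhibitor Angptl4 (31.3, 14.9 and 10.4 FPKM across wt AL, Ercc1 AL, then Ercc1 DR) and the hormone Fgf21 (2.76, 0.932 and 0.555 FPKM) were highest in wt AL, as Acaa1b was, and were the 2 genes of the list past 2-fold lower in Ercc1 AL against wt AL. As deposited Angptl4 was still past it and Fgf21, at -0.96, was not, and Vnn1, at 1.01, was past 2-fold higher.

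The citric acid cycle, which burns the acetyl-CoA, was the list with the highest median in Ercc1 DR against Ercc1 AL. Of its 16 measured genes 6 were past 2-fold higher and none lower, with a median of 0.78, beside 0.42 for the oxidation enzymes and -0.06 over all genes, and the difference between lists was not tested. As deposited, 13 of the 16 were past 2-fold higher and none lower, with a median of 1.10. Malate dehydrogenase Mdh2 was at 19.0, 24.8 and 89.5 FPKM across wt AL, Ercc1 AL, then Ercc1 DR and fumarase Fh1 at 14.04, 28.2 and 89.6 FPKM. Citrate synthase Cs, at 57.9, 44.3 and 35.3 FPKM, was the 1 gene of the list below 0 in Ercc1 DR against Ercc1 AL, where 44.8% of all genes lay above 0. In Ercc1 AL against wt AL the median was -0.02, and 1 gene, the isocitrate dehydrogenase subunit Idh3a, was past 2-fold higher, at 1.16 and at 1.56 as deposited. Idh3a was at 1.17, 5.41 and 23.4 FPKM across wt AL, Ercc1 AL, then Ercc1 DR, and had the list's highest log2 ratio in each comparison.

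**Figure D4:**
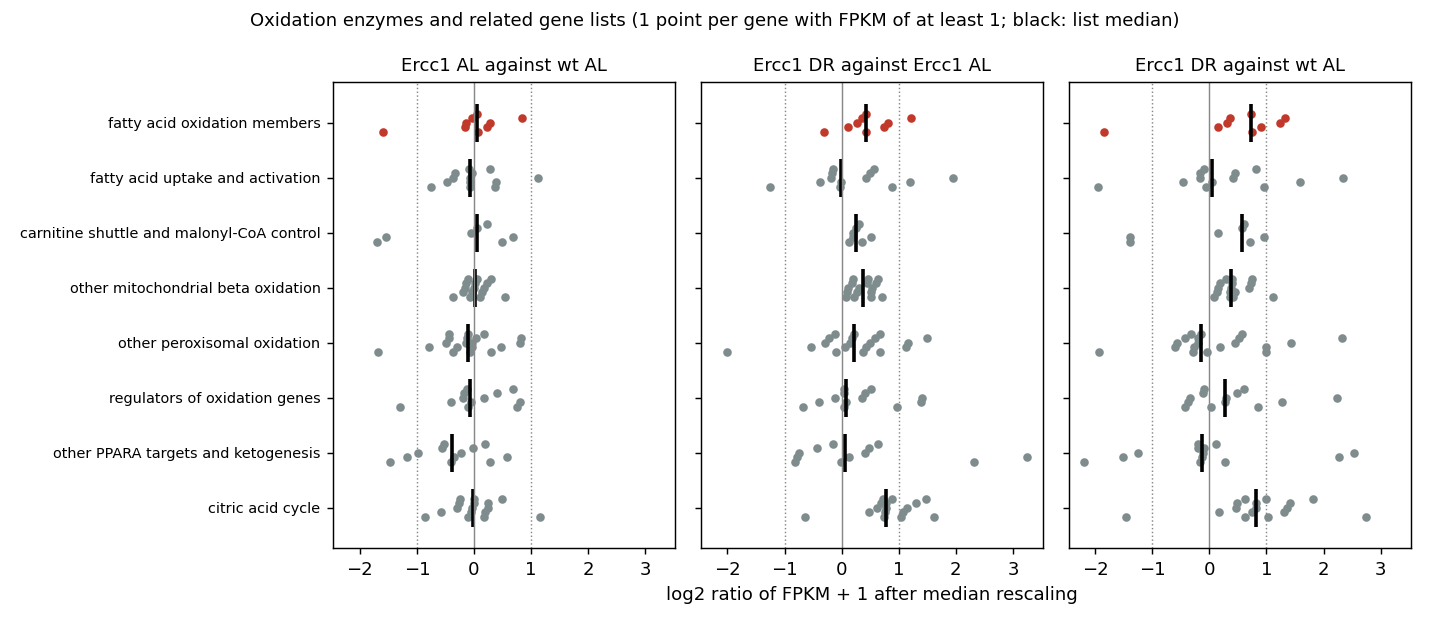
Log2 ratio of FPKM + 1 after median rescaling for every gene of the 9 members and 7 related lists with at least 1 FPKM in either library of the comparison; black bars are list medians, dotted lines 2-fold. List medians lie between -0.38 and 0.05 in Ercc1 AL against wt AL, and in Ercc1 DR against Ercc1 AL the members' median is 0.42 and that of the citric acid cycle 0.78.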

How the data were processed

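The authors deposited 1 table per library with FPKM, a lower and an upper bound and a status code for 23850 rows, per the file headers. Reads were placed on mm10, per the submitters' processing notes. The sources used here do not name the program or annotation behind the values. RNA was depleted of ribosomal RNA with RiboMinus and prepared with a TruSeq v3 protocol, per the labels, which call the liver fresh in one place and flash frozen in another. Rows with the status HIDATA or FAIL (97 in at least 1 library) were treated as missing. Where a symbol was repeated, its row of highest mean level was kept. Start positions are given from 1: with 1 added, starts of 6 of 9 members equal RefSeq.

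Library pairs were set against each other as log2 ratios of FPKM + 1. The pair was first scaled so that genes reaching 1 FPKM in every library had a median log2 FPKM ratio of 0, and ratios were taken among genes with at least 1 FPKM in either. A gene was past the threshold at 2-fold, and the share of all genes past it is given with the members' counts and once for the lists. Bounds of a ratio come from the lower bound of 1 library over the upper bound of the other and the reverse, with no pseudocount. With no counts, depth was estimated from the intervals taken as 2 SD to either side. The steps were tested on simulated data with counting noise only, a uniform shift and as many genes raised as lowered. In these libraries the shares higher and lower were unequal, so that test cannot show how the scaling performs here. The named genes are all members, from each list some of those with large absolute ratios, and the 5 genes nearest to the members' median pattern. Acaa1a and some list genes were added after their values were seen. Members and lists were chosen with earlier results of these data known. Upstream sequences are from RefSeq (GRCm38.p6) and matched 9 of 9 members. Python 3.11.15, pandas 2.3.3 and NumPy 2.4.6 were used. Values of some listed genes are not reported here.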

Additional observations from a re-analysis of the deposited data

How the results depend on the processing

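No paired analysis was possible because each group holds 1 library, and for the same reason no library could be left out. The scaling between libraries decided most counts. As deposited, the members past 2-fold were 2 (1 higher) in Ercc1 AL against wt AL, 3 (3 higher) in Ercc1 DR against Ercc1 AL and 8 (7 higher) in Ercc1 DR against wt AL, with medians of 0.52, 0.75 and 1.498. Scaled on genes above 0 FPKM in all libraries, which takes in very low genes, they were 7 (7 higher), with a median of 1.19, in Ercc1 DR against Ercc1 AL and 8 (7 higher), with a median of 1.46, in Ercc1 DR against wt AL, and nearly as before in Ercc1 AL against wt AL. Over all genes, 19.9% were then past 2-fold higher and 5.79% lower in Ercc1 DR against Ercc1 AL, in place of 2.99% and 11.4%. At 1.5-fold the members past the threshold were 2 (1 higher), 3 (3 higher) and 6 (5 higher) in the 3 comparisons, beside 5.70%, 9.33% and 15.0% of all genes higher and 10.6%, 22.6% and 25.2% lower. Scaling on genes of at least 5 FPKM, a pseudocount of 0.1, the interval midpoint, a filter at 5 FPKM and no filter kept each count and moved each member's value by less than its deposited bounds allow. The filter at 5 FPKM, which every member passed, did change the values over all genes. In the 3 comparisons 5.77%, 6.53% and 11.8% of genes were then past 2-fold higher and 8.71%, 19.7% and 20.3% lower. The medians over all genes were then 0.05, 0.15 and 0.22, nearer to those of the members. Members within 2-fold changed sign with the scaling: as deposited 3 did in Ercc1 AL against wt AL (Acadm, Acadvl and Hadha) and Acaa1b did in Ercc1 DR against Ercc1 AL, and Acaa1b did there too with scaling on genes above 0 FPKM. No member past 2-fold changed sign.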
